A study of Mus musculus with 24 samples.

Results

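Mouse bone marrow-derived macrophages treated with lipopolysaccharide (LPS) were compared between 2 media, one with mouse serum and one with human serum. The comparison took 6 of the 24 arrays of the series, 3 titled for mouse serum with LPS and 3 for human serum with LPS, 1 each from experiments G, H and I, and it covered all 11785 genes that passed a filter on low values, of 18193 genes on the array. In all 6 cultures the macrophages had been grown from marrow of C57Bl/6 mice, washed, and given 5% serum and 25 ng/ml LPS, and they were harvested after 4 h. Both sera had been heated at 56 °C for 30 min. No genetic change or other treatment is given in the labels, which also do not say whether the 3 experiments used separate animals, so the p-values measure the spread between these experiments. The other groups used here are the same sera without LPS (3 arrays each), and no serum or fetal calf serum (calf serum below) with LPS, whose levels are given for orientation. Each serum is named in the labels by species and supplier alone, so the difference is one between these sera as used.

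LPS is sensed by the receptor Tlr4 with the help of Cd14, and serum carries proteins that deliver LPS to Cd14. From Tlr4 one branch of signalling acts through NF-kappaB and the MAP kinases on cytokine genes, and another through IRF3 on Ifnb1, the gene of interferon beta. Macrophages also run stress programmes that medium can set: the integrated stress response, in which Atf4 and Ddit3 turn on amino acid transport and synthesis genes, and the NRF2 programme, which makes glutathione and other antioxidants.

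The 6 arrays were alike in their overall values. Their array medians were 5.06 to 5.09 (log2), and across genes, which are not independent replicates, Pearson's r was 0.985 to 0.988 among the mouse serum arrays with LPS, 0.989 to 0.990 among the human serum arrays and 0.984 to 0.987 between the sera. All 23 measured genes of a macrophage list passed the filter, and their summed level (log2 of the sum) was 17.04 to 17.06 in mouse serum and 17.00 to 17.06 in human serum. Marker lists of other cells were partly detected. Below the median of all values on all 6 arrays were 7 of 13 neutrophil and immature myeloid genes (Elane and Mpo among them), 5 of 12 dendritic, 11 of 15 stromal (Col1a1), 6 of 12 erythroid and megakaryocyte, 4 of 10 B cell (Ms4a1), 10 of 13 T and NK cell (Cd3e) and 10 of 16 endothelial and mast cell genes (Kit). Others stood above it on all 6 arrays, such as Ngp (6.02 to 6.51) and S100a9 (8.67 to 9.93) of the neutrophil list, Blnk (8.84 to 9.20) of the B cell list, Pdgfrb (6.08 to 7.19) and Fbln1 (5.69 to 6.74) of the stromal list, and Vwf (8.76 to 9.04) and Hdc (10.07 to 10.48) of the endothelial and mast cell list. The summed level in mouse and in human serum was 10.18 to 10.81 and 9.91 to 10.32 for the neutrophil list, 11.87 to 12.04 and 11.93 to 12.04 for the dendritic, 8.49 to 8.75 and 8.57 to 8.73 for the stromal, 12.44 to 12.53 and 12.28 to 12.39 for the erythroid, 9.67 to 9.77 and 9.68 to 9.84 for the B cell, and 11.93 to 12.16 and 11.66 to 11.82 for the T and NK cell list. The erythroid and the T and NK cell sums did not overlap between the sera. Each of these sums came almost wholly from its highest gene. That was Pf4 for the erythroid list (12.35 to 12.45 in mouse serum against 12.18 to 12.30 in human serum). For the T and NK cell list it was Il7r (11.85 to 12.10 against 11.57 to 11.75). In these RNA samples fewer cells of a type and less RNA per cell cannot be told apart.

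Every value is on the log2 scale, and every difference is mouse serum minus human serum, tested with limma across all genes and adjusted by Benjamini-Hochberg. At an adjusted p under 0.05 limma called 282 genes, 2.39% of those tested. Of these, 152 (1.29%) were higher in mouse serum and 130 (1.1%) were higher in human serum, that is, lower in mouse serum. Each of the 282 differed in the same direction in all 3 experiments, which choosing genes by p-value on these same arrays favours. In 281 of them the 3 mouse serum values did not overlap the 3 human serum values, which was true of 19.1% of all genes tested. Choosing by p-value favours this too, so a lack of overlap given below for a called gene describes it and is not further support. Most differences were small: 42 genes differed by at least 1 log2 unit, 23 of them higher and 19 lower in mouse serum, and the median difference over all genes was 0.01 (log2). Leaving out 1 array lowered the count: 189, 164 and 181 genes were called without the mouse serum array of G, H and I, and 164, 143 and 161 without the human serum array of G, H and I. Without all arrays of experiment G, H or I the counts were 71, 75 and 30. Of the 87 called genes named by rule, 40 kept their call without each of the 6 arrays, and 9 (Ddit3, Fos, Itpkb, P2ry6, Plk2, Pmepa1, Sele, Srxn1 and Txnrd1) also without each experiment.

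**Figure D1:**
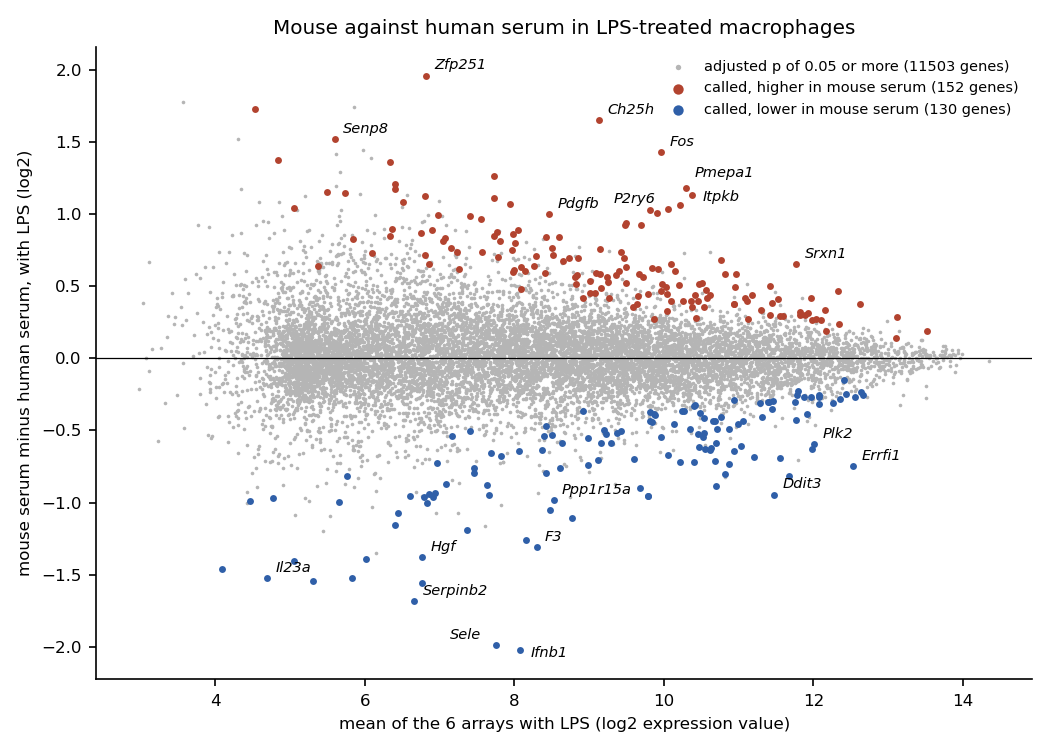
Each point is 1 of 11785 genes, placed by its mean over the 6 arrays with LPS (x axis, log2 expression value) and by mouse serum minus human serum (y axis, log2). The 152 genes called higher in mouse serum and the 130 called lower are coloured; the lowest points are Ifnb1 and Sele, at -2.02 and -1.99.

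The largest difference toward human serum was in Ifnb1, the interferon beta gene. With mouse serum and LPS its log2 values were 6.62, 7.70 and 6.89 in experiments G, H and I, and with human serum and LPS 8.59, 9.32 and 9.37. The lowest human serum value stood above the highest mouse serum value. The difference was -2.02 ± 0.32 (SE, n = 3 arrays per group), a 4.07-fold higher level in human serum, with an adjusted p of 0.001. Mean levels without LPS were 2.95 and 2.75 in the same sera, below the filter of 5.08 and so set by the array's background, and the serum difference with LPS was larger than the one without it (difference of the differences -2.23 ± 0.45, adjusted p = 0.018). That call was lost without the mouse serum LPS array of G (-2.00, adjusted p = 0.055), the human serum LPS arrays of H (-2.12, adjusted p = 0.058) and I (-2.09, adjusted p = 0.056), or the mouse serum control array of I (-1.98, adjusted p = 0.068). Across media with LPS, Ifnb1 was highest with no serum (mean 10.18) and had a mean of 7.98 in calf serum.

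Interferon beta acts back on macrophages through genes of the interferon response. Of 31 interferon response genes tested, 1 was called lower in mouse serum (Ifnb1 itself) and 0 higher, against 1.1% and 1.29% of all genes. The list's median difference was -0.02, against 0.01 over all genes. Cxcl10, an interferon-induced chemokine, was at 13.78, 13.82 and 13.78 in mouse serum and 13.80, 13.92 and 13.83 in human serum, a difference of -0.06 (95% confidence interval -0.51 to 0.40). These values lay near the top of the arrays' range, level with the abundant macrophage genes Lyz2, Lyz1 and Ctss (13.63 to 13.96), where a difference may not be measurable.

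Sele encodes E-selectin, an adhesion molecule known from activated endothelium. It was at 6.62, 6.72 and 6.93 in mouse serum and 8.58, 8.83 and 8.83 in human serum, with no overlap. The difference was -1.99 ± 0.20 (adjusted p = 5.9e-06), 3.97-fold, and it kept its call without each array and each experiment. Without LPS the levels were 3.28 and 3.50, below the filter. Of the 16 endothelial and mast cell markers, 10 (Pecam1, Tek and Emcn among them) stayed below the median of all values on all 6 arrays. Limma called 0 of the 5 tested (1 at an unadjusted p under 0.05), but all 5 were lower in mouse serum, with a median difference of -0.30. Kdr ran from 6.58 to 7.43 over the 6 arrays, with Vwf and Hdc higher as given above. The list's summed level, 10.85 to 11.05 in mouse serum and 11.13 to 11.17 in human serum, did not overlap and went the same way as Sele. Most of that sum came from its highest gene, Hdc (10.07 to 10.30 in mouse serum against 10.46 to 10.48 in human serum). Vwf (8.76 to 9.04 against 8.91 to 8.99) and Kdr (6.58 to 7.11 against 6.94 to 7.43) overlapped between the sera. The part of such cells in the Sele difference was not tested.

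The promoters of Ifnb1 and Sele are shown because both genes are known NF-kappaB targets and had the 2 largest differences toward human serum. The bases run 5′ to 3′ from 250 bases before to 50 after the start of transcription, from RefSeq (GRCm38.p6), at chr4:88522745-88523044 on the minus strand for Ifnb1 and chr1:164047984-164048283 on the plus strand for Sele. Capitals mark one form of the NF-kappaB site, GGGA and CC with any 4 bases between, on either strand.
Ifnb1: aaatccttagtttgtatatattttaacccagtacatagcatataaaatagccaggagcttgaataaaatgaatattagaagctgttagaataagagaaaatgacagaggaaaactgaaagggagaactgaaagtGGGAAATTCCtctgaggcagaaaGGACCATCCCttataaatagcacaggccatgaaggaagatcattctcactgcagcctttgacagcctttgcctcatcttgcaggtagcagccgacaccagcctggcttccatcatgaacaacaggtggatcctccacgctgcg
Sele: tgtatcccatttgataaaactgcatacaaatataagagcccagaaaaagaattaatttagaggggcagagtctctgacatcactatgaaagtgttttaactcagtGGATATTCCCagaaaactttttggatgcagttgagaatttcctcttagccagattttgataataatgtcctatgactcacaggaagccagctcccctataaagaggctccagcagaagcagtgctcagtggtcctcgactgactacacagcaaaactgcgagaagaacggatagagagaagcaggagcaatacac
Ifnb1 holds 2 such runs, starting 116 and 93 bases before the start site, and Sele holds 1, starting 145 bases before it. The letters are common: 30.4% of tested genes with at least 1 listed promoter hold them, as do 28.2% of the genes called higher in mouse serum and 40.2% of those called lower. A match is not a shown binding site.

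Other LPS-induced genes were lower in mouse serum than in human serum. Serpinb2, an inhibitor of plasminogen activators, was at 5.24, 6.70 and 5.52 against 7.23, 7.40 and 7.88, a difference of -1.68 ± 0.31 (adjusted p = 0.0032). F3, tissue factor, which starts coagulation, was at 7.44, 7.98 and 7.52 against 8.72, 9.18 and 8.97 (-1.31 ± 0.22, adjusted p = 0.0018). Itgb8, an integrin subunit known for activating latent TGF-beta, was at 5.29, 6.21 and 6.46 against 7.68, 7.44 and 7.50 (-1.56 ± 0.24, adjusted p = 0.00077). In each of the 3 genes the groups did not overlap, as in 281 of the 282 called genes. Each of the 3 rose with LPS in both sera (adjusted p of 2.2e-09 or less). Their levels without LPS were below the filter in both sera, so the size of the rise is not given. Their calls held without each of the 6 arrays. With LPS and no serum the levels of Serpinb2, F3 and Itgb8 were 7.73, 8.68 and 7.82, and the human serum levels differed from these by -0.23, 0.28 and -0.27, none past the threshold (adjusted p = 0.82, 0.63 and 0.68).

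Among 17 inflammatory cytokine genes, 2 were called lower in mouse serum and 1 higher, against 1.1% and 1.29% of all genes. The difference was negative in 16 of the 17, with a median of -0.27, and 7 had an unadjusted p under 0.05. Over all genes tested 1583 of 11785 did (13.4%). Il23a, the subunit that defines interleukin 23, was at 3.93, 3.90 and 3.97 in mouse serum, below the filter, and at 5.81, 4.87 and 5.69 in human serum, with a difference of -1.52 ± 0.25 (adjusted p = 0.0015). Csf2, which encodes GM-CSF, was at 4.50, 4.01 and 4.34 against 5.12, 5.28 and 5.36 (-0.97 ± 0.22, adjusted p = 0.021); its mouse serum values too were below the filter and its human serum values just above, so both differences are bounded by background. With LPS and no serum their mean levels were 9.34 and 9.31. The Csf2 call was lost without the mouse serum array of H (-0.83, adjusted p = 0.11) or I (-1.0, adjusted p = 0.051) and without the human serum array of H (-0.95, adjusted p = 0.074) or I (-0.92, adjusted p = 0.085). Il33, an alarmin of the interleukin 1 family, went the other way, at 7.76, 7.53 and 7.52 in mouse serum and 6.74, 7.0 and 6.86 in human serum (0.74 ± 0.18, adjusted p = 0.031). With LPS it was at 3.03, below the filter, with no serum and 5.24 in calf serum. Its call was lost without any 1 of the 6 arrays, with a difference then of 0.66 to 0.80 and an adjusted p of 0.057 to 0.12.

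Several main inflammatory products of LPS were not called between the sera, though most of their differences were negative. Tnf was at 10.90, 10.84 and 10.90 in mouse serum and 11.03, 11.31 and 11.15 in human serum, a difference of -0.28 with a 95% confidence interval of -0.47 to -0.09 and an adjusted p of 0.12. Il6 differed by -0.15 (-0.52 to 0.21), Il1b by -0.15 (-0.47 to 0.18), Il10 by -0.28 (-0.73 to 0.17) and Nos2, whose enzyme makes nitric oxide, by 0.38 (-0.05 to 0.80). Il12b, a subunit that interleukin 23 shares with interleukin 12, differed by -0.51 (-1.14 to 0.11). The receptor Tlr4 differed by -0.18 (-0.33 to -0.03, adjusted p = 0.26) and Cd14 by 0.10 (-0.06 to 0.26). Of 22 chemokine genes limma called 0 and 4 had an unadjusted p under 0.05, against 2.39% and 13.4% of all genes, shares near the background; among them Cxcl3 differed by 0.23 (-0.36 to 0.83). The platelet chemokine genes Ppbp and Pf4 differed by 0.34 (-0.09 to 0.78) and 0.17 (0.04 to 0.29), with adjusted p of 0.53 and 0.19. These intervals are not adjusted for the number of genes.

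Among the genes higher in mouse serum, Ch25h had one of the largest differences. It encodes cholesterol 25-hydroxylase, which makes an oxysterol with antiviral action. The log2 values were 9.68, 10.16 and 10.05 in mouse serum and 8.18, 8.33 and 8.43 in human serum, a difference of 1.65 ± 0.25 (adjusted p = 0.00057), 3.14-fold. Without LPS it was at 3.65, 3.63 and 3.82 in mouse serum, below the filter, and at 4.85, 5.65 and 5.06 in human serum, on either side of it (-1.49, adjusted p = 0.0004). The difference between the contrasts was 3.14 ± 0.35 (adjusted p = 2.4e-05). Both of these sizes depend on the array's background. Its calls held without each single array. The level with LPS was 8.23 with no serum and 9.02 in calf serum. Other genes of the LXR list, which answer to oxysterols, were not called in either direction. Ch25h was the 1 called of 14, against 2.39% of all genes. Abca1, the cholesterol exporter, differed by -0.31 (95% confidence interval -0.49 to -0.13, adjusted p = 0.057). The promoter of Ch25h (RefSeq, GRCm38.p6, chr19:34475099-34475398, minus strand) is shown because it holds TGACGTCA, the full cAMP response element, in capitals, starting 61 bases before the start site.
Ch25h: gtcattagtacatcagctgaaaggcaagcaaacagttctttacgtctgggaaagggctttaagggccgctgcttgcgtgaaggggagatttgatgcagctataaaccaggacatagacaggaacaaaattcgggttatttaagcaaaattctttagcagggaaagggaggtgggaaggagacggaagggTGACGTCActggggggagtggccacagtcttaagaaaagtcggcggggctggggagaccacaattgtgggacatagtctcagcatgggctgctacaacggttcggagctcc
Of the tested genes with a listed promoter 3.47% hold these letters, of those called higher in mouse serum 5.13% and of those called lower 7.22%.

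Fos and Itpkb were higher on every mouse serum array than on any human serum array. Fos, a subunit of the transcription factor AP-1, was at 10.34, 10.74 and 10.96 in mouse serum and 9.11, 9.22 and 9.42 in human serum (1.43 ± 0.16, adjusted p = 2e-05, 2.69-fold). With LPS it fell in both sera at 4 h, with changes of -1.78 and -2.84 (adjusted p = 3e-09 and 7.2e-13), and the difference between these (1.07 ± 0.23) had an adjusted p of 0.028. Itpkb, a kinase of inositol trisphosphate, was at 10.98, 10.99 and 10.88 against 9.81, 9.93 and 9.70 (1.13 ± 0.12, adjusted p = 7.5e-06). Without LPS it stood at 10.48 and 10.46, and its difference with LPS was 2.19-fold. The difference between the contrasts was 1.11 ± 0.17 (adjusted p = 0.00088). P2ry6, a receptor for UDP, was at 10.63, 10.50 and 10.58 against 9.69, 9.45 and 9.46 (1.03 ± 0.15, adjusted p = 0.00038), and Pdgfb, a platelet-derived growth factor chain, at 9.06, 9.0 and 8.83 against 8.04, 7.85 and 8.0 (1.0 ± 0.15, adjusted p = 0.00068). Of the 4 media with LPS, that with no serum had the lowest mean of each of these 4 genes, at 8.35, 9.27, 8.93 and 6.96.

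**Figure D2:**
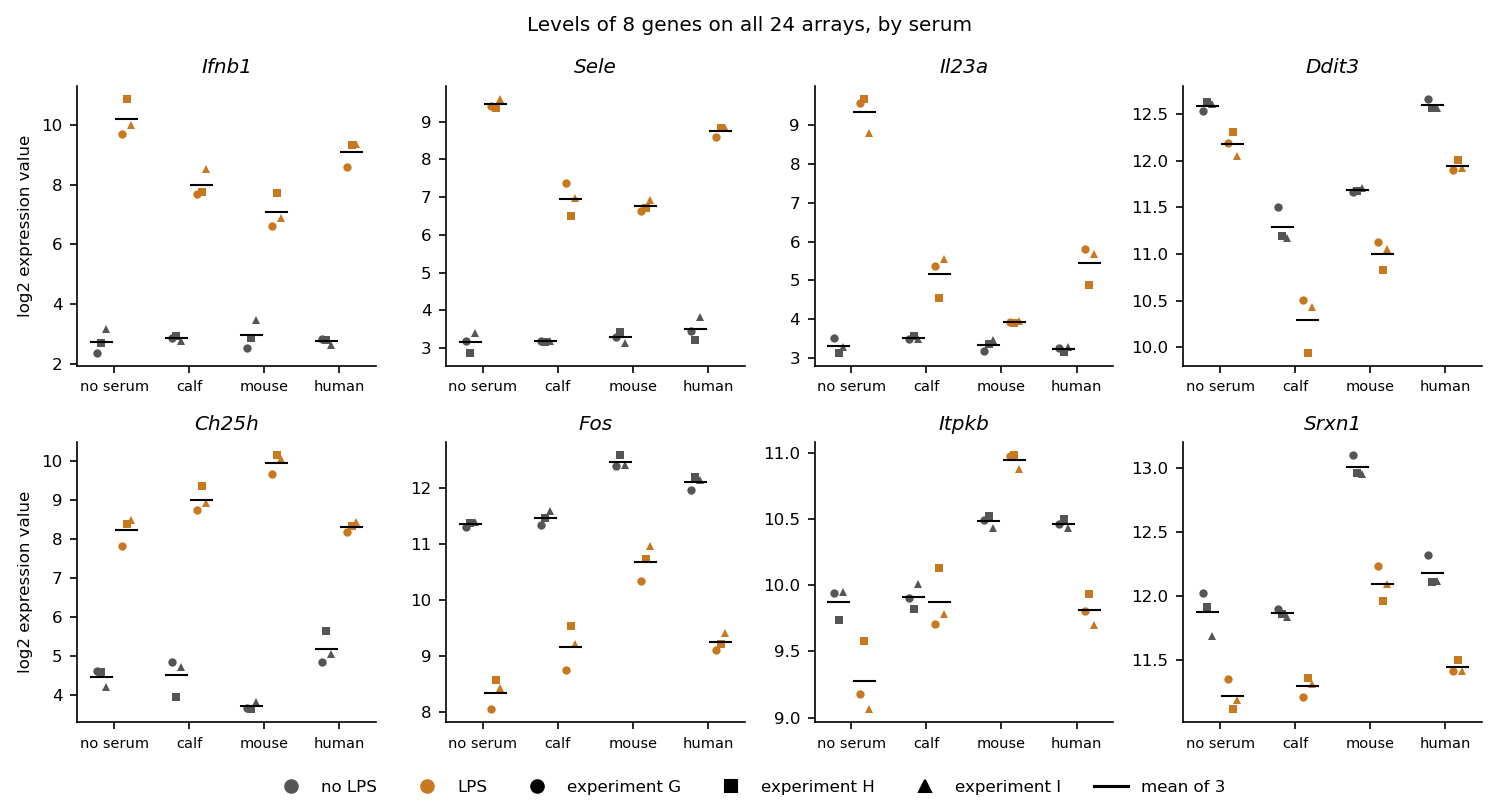
Log2 expression values (y axis) of 8 genes on all 24 arrays by serum (x axis), without LPS (grey) and with LPS (orange); symbols give the experiment and lines the mean of 3. With LPS, Ifnb1, Sele, Il23a and Ddit3 lie higher in human than in mouse serum and Ch25h, Fos, Itpkb and Srxn1 lie lower, with no overlap, while without LPS Ch25h has the opposite order, at values near or below the filter, and the Itpkb means are 10.48 and 10.46.

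Pmepa1, a TGF-beta-induced inhibitor of Smad signalling, was at 10.79, 11.01 and 10.88 in mouse serum and 9.81, 9.51 and 9.81 in human serum (1.18 ± 0.13, adjusted p = 9.3e-06). Its serum difference was larger without LPS (2.09), and the difference between the contrasts was -0.91 ± 0.18 (adjusted p = 0.015). The TGF-beta list had 17 tested genes and a median difference of 0.18. Of these genes 2 were higher in mouse serum and 0 lower, against 1.29% and 1.1% of all genes. The other was Itgb5, an integrin subunit, at 9.23, 9.77 and 9.15 against 8.79, 8.95 and 8.65 (0.59 ± 0.14, adjusted p = 0.031). It was at 0.36 (adjusted p = 0.089) as the mean of its kept probe sets and at 0.17 (adjusted p = 0.7) on the specific ones alone, those without a suffix for possible cross-hybridization. Its call was lost without the mouse serum array of H (0.40, adjusted p = 0.19) and without the human serum array of G (0.59, adjusted p = 0.093) or I (0.52, adjusted p = 0.14). Cebpa, a transcription factor of the myeloid lineage, was at 7.49, 7.38 and 7.55 against 6.41, 6.46 and 6.56 (0.99 ± 0.17, adjusted p = 0.0022). With LPS it fell in both sera, with changes of -3.86 and -3.28 (adjusted p = 8.8e-15 and 1.7e-13), and without LPS it differed by 1.57.

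Other genes among the 15 largest differences toward mouse serum varied in how far they depended on 1 array, on the probe set read or on the background. Zfp251, a zinc finger gene, ran from 6.98 to 8.72 in mouse serum and from 5.02 to 6.61 in human serum (1.96 ± 0.47, adjusted p = 0.026), and lost its call without the mouse serum array of H (2.00, adjusted p = 0.067) or I (1.5, adjusted p = 0.16) or the human serum array of H (1.99, adjusted p = 0.074) or I (1.55, adjusted p = 0.15). Ninl (1.73 ± 0.45), Senp8 (1.52 ± 0.32), Nudt6 (1.38 ± 0.28) and Zkscan8 (1.16 ± 0.19) had human serum means below 5.08, the filter, where differences are bounded by the array's background. Ninl lost its call without 4 of the 6 arrays (1.23 to 1.92, adjusted p = 0.064 to 0.22), Senp8 without 3 (1.24 to 1.38, adjusted p = 0.058 to 0.079) and Nudt6 without the human serum array of I (1.20, adjusted p = 0.058). Kbtbd7 (1.36 ± 0.27, adjusted p = 0.0064) and 1700017B05Rik (1.12 ± 0.20, adjusted p = 0.0025) kept theirs without each array, as did Zkscan8 (adjusted p = 0.0015). Map3k4, a MAP kinase kinase kinase, differed by 1.21 ± 0.28 and lost its call without 3 arrays (0.83 to 1.22, adjusted p = 0.061 to 0.15). Ppp1r3b, which targets a phosphatase to glycogen, differed by 1.26 ± 0.33 (adjusted p = 0.044), and without any 1 array the adjusted p was 0.076 to 0.18. Zfp3 (1.17 ± 0.23) and Slc45a4 (1.14 ± 0.25) lost theirs without 2 arrays each, at 0.95 and 1.01 with adjusted p of 0.052 and 0.051 for Zfp3, and at 1.01 and 1.10 with 0.077 and 0.07 for Slc45a4. As the mean of the gene's kept probe sets the differences were smaller by over 1.5 times: 0.80 for Senp8, 0.48 for Zkscan8, 0.49 for 1700017B05Rik and 0.26 for Slc45a4 were no longer called (adjusted p = 0.081, 0.25, 0.22 and 0.56), and 0.69 for Kbtbd7 and 0.73 for Zfp3 were (adjusted p = 0.039 and 0.013). Of the 2 other probe sets of Slc45a4 0 had its sign.

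Toward human serum, the remaining genes of the 15 largest differences were also mixed. Hgf, hepatocyte growth factor, was at 6.53, 5.43 and 6.28 in mouse serum and 7.87, 7.49 and 7.02 in human serum (-1.38 ± 0.26, adjusted p = 0.0041), whereas without LPS it was higher in mouse serum (0.89, adjusted p = 0.045). The difference between the contrasts was -2.27 ± 0.36 (adjusted p = 0.0019). Steap4, a metalloreductase induced by inflammation, was at 5.25, 5.60 and 5.1 against 5.97, 7.08 and 7.09 (-1.39 ± 0.24, adjusted p = 0.0021). Slco4a1, an organic anion transporter, was at 6.84, 6.73 and 6.76 against 7.76, 7.86 and 8.29 (-1.19 ± 0.23, adjusted p = 0.0057) and differed by -1.12 without LPS. These 3 calls held without each array, but on specific probe sets alone Slco4a1 was at -0.43 (adjusted p = 0.28). Slamf1, a receptor of the SLAM family, differed by -1.52 ± 0.32, and lost its call without the array of H in mouse serum (-1.13, adjusted p = 0.083) or in human serum (-1.39, adjusted p = 0.064), and as the mean of its kept probe sets (-0.79, adjusted p = 0.09). Unc80 (-1.46 ± 0.25) and Itgae (-1.40 ± 0.30), which encodes the integrin CD103, had mouse serum means of 3.36 and 4.35, below the filter, as did Mettl27 (-1.54 ± 0.39, mean 4.54). Unc80 kept its call without each array, whereas Itgae and Mettl27 each lost it without 4 (-1.40 to -1.23, adjusted p = 0.052 to 0.079, and -1.55 to -1.25, adjusted p = 0.099 to 0.2).

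The amino acid and integrated stress response had the most calls of the 52 lists. Of its 41 tested genes 12 were lower in mouse serum and 0 higher, against 1.1% and 1.29% of all genes. In the list 38 had a negative difference, and the median was -0.35, against 0.01 over all genes. Ddit3, which encodes the stress transcription factor CHOP, was at 11.13, 10.83 and 11.05 in mouse serum and 11.90, 12.01 and 11.92 in human serum (-0.95 ± 0.11, adjusted p = 3.3e-05). Ppp1r15a, the phosphatase subunit GADD34 that ends the response, was at 8.24, 7.85 and 8.01 against 9.02, 9.10 and 8.93 (-0.98 ± 0.15, adjusted p = 0.00083). Groups did not overlap in either gene, as in 281 of the 282 called genes, and both calls held without each array.

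Of its transport and synthesis genes some were called, all of them lower in mouse serum. Slc38a2, an amino acid transporter, was at 10.32, 10.74 and 10.48 against 11.21, 11.27 and 11.25 (-0.73 ± 0.15, adjusted p = 0.0098). Psat1, an enzyme of serine synthesis, was at 11.44, 11.03 and 11.14 against 11.85, 11.91 and 11.92 (-0.69 ± 0.14, adjusted p = 0.0092). Sesn2, which restrains mTORC1, was at 9.11, 9.4 and 9.44 against 10.29, 10.35 and 10.18 (-0.96 ± 0.25, adjusted p = 0.041), and Wars, the tryptophanyl-tRNA synthetase, at 10.35, 10.21 and 10.34 against 11.08, 10.99 and 10.72 (-0.63 ± 0.15, adjusted p = 0.021). Slc38a2 lost its call without the mouse serum array of G (-0.63, adjusted p = 0.061) and Psat1 without that of H (-0.60, adjusted p = 0.061). Wars lost it without 4 arrays (-0.65 to -0.56, adjusted p = 0.05 to 0.11) and Sesn2 without any 1 (-1.02 to -0.85, adjusted p = 0.077 to 0.14). The other called members, Psph, Cebpg, Atf5, Gars, Nars and Atf3, differed by -0.54 to -0.25; the first 5 are named after their values were seen. Without 1 array, 5 to 8 of the 41 genes were called. Asns (-0.47, adjusted p = 0.051), Trib3 (-0.70, adjusted p = 0.15) and Chac1 (-0.96, adjusted p = 0.23) were not called, nor was the transporter Slc7a11, with a positive difference (0.55, adjusted p = 0.13), and Atf4 itself differed by -0.06 (adjusted p = 0.93).

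The same 41 genes had a median serum difference of -0.48 without LPS, where 20 were called lower and 1 higher in mouse serum. The shares of all genes without LPS were 2.69% lower and 2.56% higher. Of the 12 called with LPS 10 were also called lower without it, in arrays that the first comparison did not use though from the same experiments. Ddit3 differed by -0.92 without LPS and Psat1 by -0.69. With LPS and no serum Ddit3 was at 12.19 (human serum minus no serum -0.24, adjusted p = 0.31), and in calf serum at 10.29. Of unfolded protein response genes, 1 of 24 was called, against 2.39% of all genes. The called gene was Herpud1, which acts in the degradation of misfolded proteins of the endoplasmic reticulum. It was at 7.11, 7.81 and 7.66 in mouse serum and 8.68, 8.86 and 8.82 in human serum (-1.26 ± 0.22, adjusted p = 0.002), and its call held without each array. The median of that list was 0.02.

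Of 33 tested NRF2, haem and iron genes, 7 were called higher in mouse serum, 0 lower and 26 in neither direction. Over all genes 1.29% were called higher and 1.1% lower. In the list 30 genes had a positive difference, and the median was 0.15. Srxn1, sulfiredoxin, was at 12.24, 11.96 and 12.10 in mouse serum and 11.42, 11.51 and 11.42 in human serum (0.65 ± 0.08, adjusted p = 0.00013, 1.57-fold). Txnrd1, thioredoxin reductase, was at 12.61, 12.48 and 12.58 against 12.03, 12.11 and 12.13 (0.46 ± 0.07, adjusted p = 0.00034). Gclm, the modifier subunit of the enzyme that limits glutathione synthesis, was at 10.31, 10.11 and 10.28 against 9.53, 9.69 and 9.63 (0.62 ± 0.10, adjusted p = 0.0015). Hmox1, haem oxygenase, was at 11.05, 10.96 and 11.34 against 10.38, 10.68 and 10.53 (0.59 ± 0.10, adjusted p = 0.0018), and Gsr, glutathione reductase, at 11.65, 11.68 and 11.61 against 11.27, 11.24 and 11.28 (0.39 ± 0.06, adjusted p = 0.00082). The groups did not overlap in these 5 genes, as in 281 of the 282 called genes. Their calls held without each array.

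Gclc, the catalytic subunit partnered by Gclm, differed by 0.49 ± 0.13 (adjusted p = 0.04), and lost its call without 5 of the 6 arrays (0.42 to 0.55, adjusted p = 0.06 to 0.17). Nfe2l2, the gene of NRF2 itself, differed by 0.33 ± 0.08 (adjusted p = 0.032) on the probe set used, lost its call without 5 arrays (0.25 to 0.36, adjusted p = 0.051 to 0.19), and was at -0.21 (adjusted p = 0.61) as the mean of its kept probe sets, so no direction is given for it. Without 1 array, 5 to 7 of the 33 genes were called. Nqo1, a classic target, differed by 0.16 (adjusted p = 0.73). Without LPS 18 of the 33 were higher and 0 lower in mouse serum, against 2.56% and 2.69% of all genes. The list's median was then 0.45, and 6 of the 7 genes called with LPS were among the 18. For Gclc the serum difference was smaller with LPS than without by -0.82 ± 0.18 (adjusted p = 0.029); for Hmox1 and Gclm that test gave -0.45 (adjusted p = 0.2) and -0.57 (adjusted p = 0.076). Human serum differed from no serum with LPS by 0.23 for Srxn1, 0.10 for Txnrd1 and -0.12 for Gclm (adjusted p = 0.15, 0.54 and 0.68), while mouse serum differed from no serum by 0.88, 0.56 and 0.50 (adjusted p = 1.1e-07, 1.9e-06 and 0.0015).

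The promoters of Srxn1 and Gclm are shown for a form of the NRF2 site, TGACNNNGC, in capitals on either strand. They are from RefSeq (GRCm38.p6), 250 bases before to 50 after the start site. Srxn1 is at chr2:152105274-152105573 and Gclm at chr3:122245307-122245606, both on the plus strand.
Srxn1: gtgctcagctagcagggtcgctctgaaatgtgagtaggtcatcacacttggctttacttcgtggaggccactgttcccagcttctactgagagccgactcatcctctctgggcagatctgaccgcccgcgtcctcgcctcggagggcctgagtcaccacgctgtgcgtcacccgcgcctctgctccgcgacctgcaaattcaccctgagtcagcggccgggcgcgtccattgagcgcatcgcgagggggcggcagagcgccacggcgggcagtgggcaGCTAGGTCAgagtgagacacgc
Gclm: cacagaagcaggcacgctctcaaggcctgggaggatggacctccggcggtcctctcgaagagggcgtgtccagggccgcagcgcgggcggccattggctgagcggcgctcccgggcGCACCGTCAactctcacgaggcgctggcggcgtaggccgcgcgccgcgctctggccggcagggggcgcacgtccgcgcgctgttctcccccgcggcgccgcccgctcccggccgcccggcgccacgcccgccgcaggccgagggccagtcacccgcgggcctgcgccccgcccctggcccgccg
The match in Srxn1 starts 28 bases after the start site and that in Gclm 134 bases before it. Srxn1 also holds TGANTCA, the AP-1 site, at 2 places in lower case. The one starting 45 bases before the start site runs on as tgagtcagc, with G where the NRF2 letters searched have C. Other forms of the NRF2 site were not searched. Of the 7 called NRF2 genes 4 had a listed promoter, and all 4 held the letters: Srxn1, Gclm, Txnrd1 and Nfe2l2, the last without a direction given above. So did 9 of the 26 tested genes of the list with a promoter (34.6%). The share was 17.1% among all tested genes with a promoter, 18.8% among those called higher and 21.6% among those called lower in mouse serum. In the amino acid and integrated stress list, whose calls ran the other way, 12 of 35 tested genes with a promoter (34.3%) and 4 of 10 called ones (40%) held them too.

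The letters TGATGNAA, a site for Atf4 paired with C/EBP, were in 11 of the 97 genes called lower in mouse serum that had a listed promoter (11.3%), in 4.27% of those called higher and in 2.78% of tested genes. The 11 were Aqp9, Atf3, Gars, Got1, Gpr132, Herpud1, Iars, Ifnb1, Mmp10, Pck2 and Plscr1, named for holding the letters. In the amino acid and integrated stress list, 11 of 35 tested genes with a promoter held the letters (31.4%). Of its called genes with a promoter 2 of 10 did (20%), Atf3 and Gars. The listed promoters of Ddit3, Sesn2 and Ppp1r15a did not hold them. The sites of the interferon response (GAAA, any 2 bases, GAAA) were in 7.22% of genes called lower, 1.71% of those called higher and 3.8% of those tested, and the glucocorticoid receptor site (by name) in 0 of either called group and 0.261% of those tested. The CArG box of SRF, searched by name, was in 4.12%, 0.855% and 1.56%, and the EGR site (GCGGGGGCG) in 2.06%, 8.55% and 6.29%. These shares describe windows of 300 bases and carry no test.

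**Figure D3:**
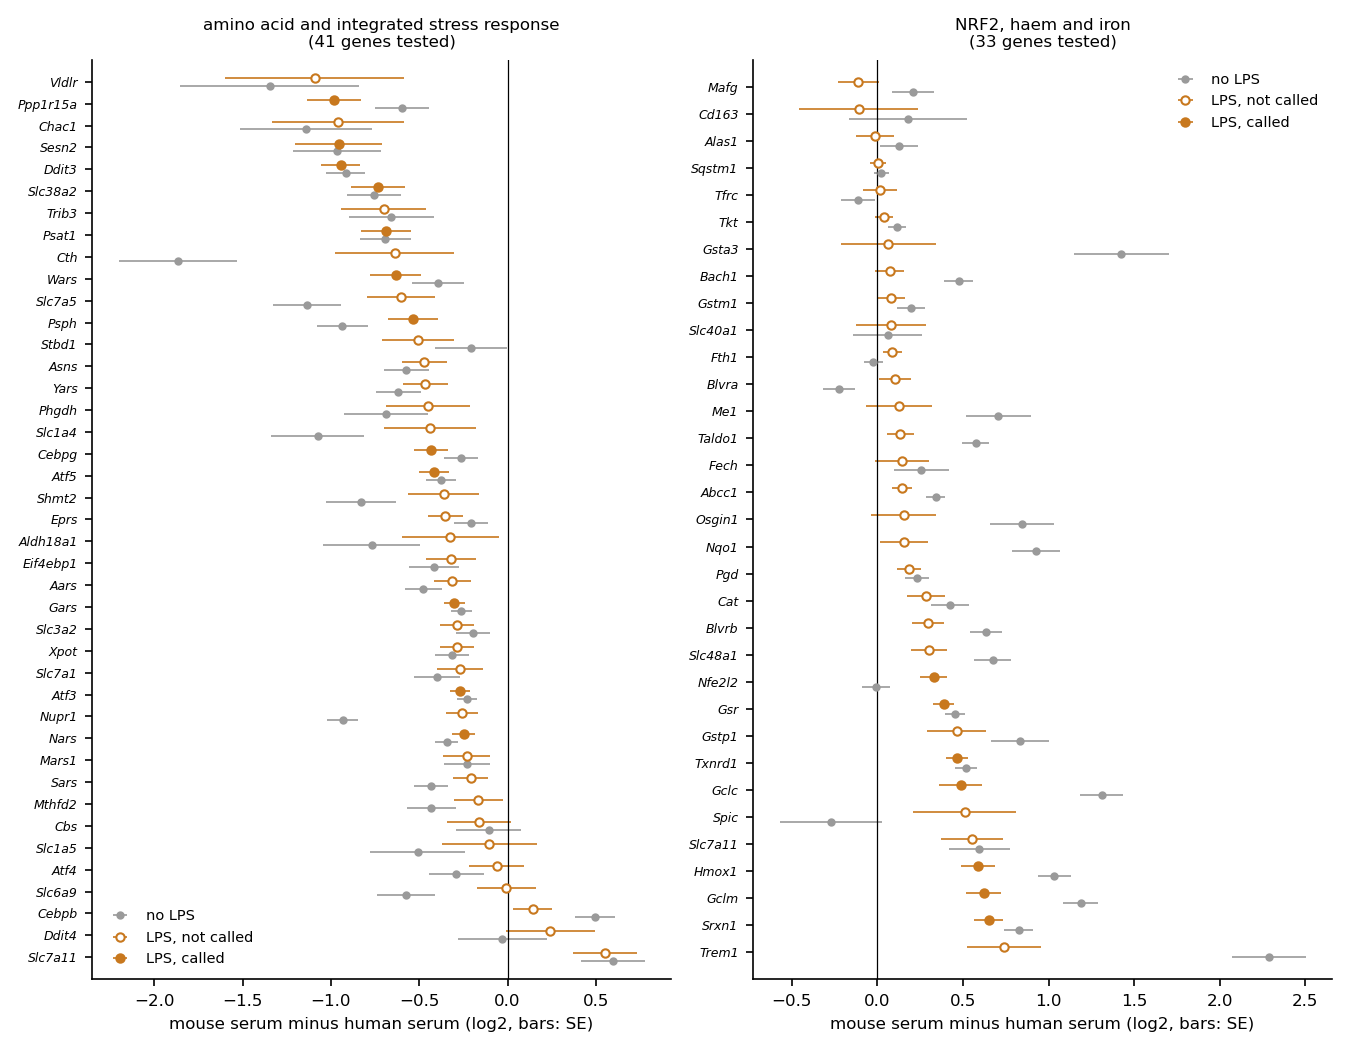
Mouse serum minus human serum (x axis, log2, bars are SE) for each tested gene (y axis) of the amino acid and integrated stress response (41 genes) and of the NRF2, haem and iron list (33 genes), with LPS (orange, filled where called) and without (grey). With LPS 38 of 41 genes lie left of 0 in the first list and 30 of 33 right of 0 in the second.

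The cytosolic heat shock and p53 target lists each held several calls, all in the same direction within a list. Over all genes 1.29% were called higher and 1.1% lower. Of 14 cytosolic heat shock genes 3 were higher in mouse serum and 0 lower, with a median of 0.12. Hsph1, a co-chaperone of Hsp70, was at 9.88, 9.79 and 9.62 against 9.12, 9.27 and 9.33 (0.53 ± 0.10, adjusted p = 0.0039), and Bag3, another, at 8.17, 8.40 and 8.33 against 7.71, 7.70 and 7.64 (0.61 ± 0.12, adjusted p = 0.0071). Hspa1a, an inducible Hsp70 whose near-identical copy Hspa1b can share its signal, was at 7.40, 7.48 and 7.16 against 6.97, 6.04 and 6.35 (0.89 ± 0.22, adjusted p = 0.031) and lost its call without 4 arrays (0.68 to 0.87, adjusted p = 0.087 to 0.19). Of 20 p53 targets 4 were lower in mouse serum and 0 higher, with a median of -0.06. Plk2, a kinase of the stress response, was at 11.66, 11.77 and 11.70 against 12.29, 12.32 and 12.30 (-0.59 ± 0.06, adjusted p = 5.9e-06), and Gadd45a, a growth arrest gene, at 8.19, 7.81 and 7.84 against 8.76, 9.08 and 9.16 (-1.05 ± 0.19, adjusted p = 0.0035). Eda2r, a receptor of the TNF family, was at 5.77, 6.11 and 5.61 against 6.85, 7.01 and 7.11 (-1.16 ± 0.20, adjusted p = 0.0022). The other p53 target was Sesn2, which the integrated stress list also holds. Gadd45g went the opposite way to Gadd45a, at 10.02, 9.81 and 9.61 against 9.46, 9.05 and 8.85 (0.69 ± 0.17, adjusted p = 0.033), and lost its call without 4 arrays (0.56 to 0.69, adjusted p = 0.094 to 0.18).

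The immediate early genes split. Of 29 tested 2 were higher in mouse serum (Fos and Dusp1) and 4 were lower (Ier2, Egr1, Maff and Atf3), with a median of -0.14. The shares of all genes were 1.29% higher and 1.1% lower. Dusp1, a phosphatase that switches off MAP kinases, was at 13.15, 13.42 and 13.20 against 12.95, 13.04 and 12.93 (0.28 ± 0.06, adjusted p = 0.0099). Ier2 was at 7.82, 8.15 and 8.11 against 8.71, 9.05 and 8.70 (-0.80 ± 0.16, adjusted p = 0.0074), and the transcription factor gene Egr1 at 10.24, 10.42 and 10.31 against 10.83, 11.01 and 11.26 (-0.71 ± 0.17, adjusted p = 0.021). Maff, a small Maf protein, differed by -0.67 ± 0.14 (adjusted p = 0.011) and Atf3, a repressor of LPS-induced genes, by -0.27 ± 0.06 (adjusted p = 0.0094). Fos alone of these kept its call without each array. Dusp1 lost it without the mouse serum array of H (0.20, adjusted p = 0.08) or the human serum array of I (0.26, adjusted p = 0.059), Ier2 without the human serum array of H (-0.68, adjusted p = 0.059) and Atf3 without that of I (-0.24, adjusted p = 0.064). Egr1 lost it without 4 arrays (-0.72 to -0.60, adjusted p = 0.067 to 0.12) and Maff without 3 (-0.63 to -0.55, adjusted p = 0.059 to 0.071).

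Growth factor genes also went both ways, 3 of 23 higher and 3 lower in mouse serum, against 1.29% and 1.1% of all genes. The list's median was 0.04. Besides Pdgfb, the higher ones were Csf2rb and Csf2rb2, at 0.32 ± 0.05 (adjusted p = 0.0013) and 0.30 ± 0.06 (adjusted p = 0.011). They encode near-identical receptor subunits, so their probe sets may not be independent, and the Csf2rb2 call was lost without 3 arrays (0.26 to 0.28, adjusted p = 0.052 to 0.076). Besides Hgf, the lower ones were Hbegf, a ligand of the EGF receptor (-0.96 ± 0.24, adjusted p = 0.038), and Inhba, the activin A subunit (-0.64 ± 0.16, adjusted p = 0.038). Both lost their call without any 1 array (-1.0 to -0.89, adjusted p = 0.086 to 0.14, and -0.68 to -0.60, adjusted p = 0.076 to 0.14), and as the mean of its kept probe sets Inhba was at -0.17 (adjusted p = 0.77). Errfi1, which restrains the EGF receptor, was at 12.24, 12.08 and 12.16 in mouse serum and 12.87, 12.88 and 12.98 in human serum (-0.75 ± 0.12, adjusted p = 0.001). It differed by 0.39 (adjusted p = 0.06) without LPS, and the difference between the contrasts was -1.14 ± 0.17 (adjusted p = 0.00077).

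Errfi1 is also a gene of the glucocorticoid response, a list of which 24 genes were tested, with a median of 0.20. Of these 3 were higher in mouse serum and 1 lower, against 1.29% and 1.1% of all genes. The higher ones were Tsc22d3, which encodes the glucocorticoid-induced leucine zipper GILZ (8.68, 9.21 and 8.73 against 8.09, 8.18 and 8.19; 0.72 ± 0.15, adjusted p = 0.011), Glul, glutamine synthetase (0.29 ± 0.06, adjusted p = 0.0096), and Dusp1. Tsc22d3 lost its call without the mouse serum array of H (0.55, adjusted p = 0.09) or the human serum array of G (0.68, adjusted p = 0.053), Glul without the array of I in either serum (0.27 in both, adjusted p = 0.051 and 0.05), and Dusp1 without 2 arrays (0.20 and 0.26, adjusted p = 0.08 and 0.059). Fkbp5, a sensitive target of the receptor, differed by 0.33 (95% confidence interval -0.04 to 0.71, adjusted p = 0.46). Without LPS 10 of the 24 were higher in mouse serum and 0 lower, against 2.56% and 2.69% of all genes. The list's median was then 0.39, and Fkbp5 differed by 1.32 (adjusted p = 4e-05).

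Receptor and adhesion lists held a few calls each, some of them given above. Of 25 integrin and adhesion genes 2 were higher in mouse serum and 1 lower. Of 15 chemokine and chemoattractant receptors 2 were higher and 0 lower, and of 26 G protein-coupled receptors 1 was higher and 1 lower. Over all genes 1.29% were called higher and 1.1% lower. Cxcr4, the receptor for Cxcl12, was at 9.51, 10.08 and 9.81 against 9.08, 8.90 and 9.21 (0.74 ± 0.13, adjusted p = 0.0023), Selplg, the selectin ligand PSGL-1, at 10.06, 9.99 and 9.97 against 9.47, 9.46 and 9.41 (0.56 ± 0.11, adjusted p = 0.0074), and Procr, the protein C receptor, at 12.72, 12.97 and 12.75 against 12.45, 12.43 and 12.43 (0.37 ± 0.07, adjusted p = 0.0023). Coro1a, an actin-binding protein, was lower in mouse serum (-0.43 ± 0.07, adjusted p = 0.0018), and Ccnd1, cyclin D1, was higher (0.66 ± 0.13, adjusted p = 0.0084). These 5 calls held without each array. Tlr13, a receptor for bacterial RNA, differed by 0.69 ± 0.17 and was not called without any 1 array (0.56 to 0.77, adjusted p = 0.051 to 0.17). Nfil3, a basic leucine zipper factor, was lower in mouse serum (-0.63 ± 0.13, adjusted p = 0.0084), a call lost without the human serum array of H (-0.57, adjusted p = 0.053). Of 52 lists 16 had 0 called genes in limma (30 of their 225 genes, 13.3%, had an unadjusted p under 0.05, as did 13.4% of all genes), among them antigen presentation (25 genes tested), lysosome and autophagy (28), cholesterol synthesis (20), the TCA cycle (22), complement (12) and Fc receptors (14).

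The last 11 genes named by the rule all lost their call when some single array was left out, and their values are given with that range. Jag1, a ligand of Notch, differed by 0.44 ± 0.11 (adjusted p = 0.038), and lost its call without 4 of the 6 arrays (0.33 to 0.44, adjusted p = 0.1 to 0.2) and as the mean of its kept probe sets (0.26, adjusted p = 0.082). Dtx4, a ubiquitin ligase of the Notch pathway, differed by 0.27 ± 0.07 (adjusted p = 0.043), and lost its call without any 1 array (0.22 to 0.31, adjusted p = 0.051 to 0.21). Gpam, which starts triglyceride synthesis, differed by 0.64 ± 0.16 (adjusted p = 0.032), and lost its call without 5 of the 6 arrays (0.47 to 0.67, adjusted p = 0.07 to 0.19) and as the mean of its kept probe sets (0.31, adjusted p = 0.41). The first 6 of them were higher in mouse serum and the other 5 lower. Plin2, which coats lipid droplets, differed by 0.14 ± 0.04 (adjusted p = 0.034), and lost its call without any 1 array (0.13 to 0.16, adjusted p = 0.057 to 0.14). Mxi1, an antagonist of Myc, differed by 0.52 ± 0.14 (adjusted p = 0.047), and lost its call without any 1 array (0.46 to 0.60, adjusted p = 0.057 to 0.18). Gpr65, a proton-sensing receptor, differed by 0.46 ± 0.12 (adjusted p = 0.036), and lost its call without 5 of the 6 arrays (0.41 to 0.51, adjusted p = 0.055 to 0.14). Gpr132, a receptor for lysophospholipids and lactate, differed by -0.59 ± 0.14 (adjusted p = 0.027), and lost its call without 5 of the 6 arrays (-0.62 to -0.48, adjusted p = 0.055 to 0.15). Mmp10, a matrix protease, differed by -0.76 ± 0.19 (adjusted p = 0.038), and lost its call without any 1 array (-0.79 to -0.72, adjusted p = 0.076 to 0.14). Pfkp, a glycolytic phosphofructokinase, differed by -0.27 ± 0.07 (adjusted p = 0.031), and lost its call without 5 of the 6 arrays (-0.29 to -0.23, adjusted p = 0.064 to 0.14). Cdt1, which licenses DNA replication, differed by -0.41 ± 0.10 (adjusted p = 0.035), and lost its call without any 1 array (-0.45 to -0.34, adjusted p = 0.051 to 0.16). Dbp, a clock-controlled transcription factor, differed by -0.94 ± 0.25 (adjusted p = 0.046), and lost its call without 5 of the 6 arrays (-1.03 to -0.78, adjusted p = 0.066 to 0.22) and on specific probe sets alone (-0.56, adjusted p = 0.2).

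Among markers of other cells, 2 genes were called, both higher in mouse serum. S100a8, a calcium-binding protein abundant in neutrophils that macrophages can make too, was at 8.45, 7.90 and 8.52 against 7.39, 6.75 and 7.38 (1.11 ± 0.24, adjusted p = 0.011). It lost its call without the mouse serum array of G (1.03, adjusted p = 0.056) or I (1.0, adjusted p = 0.068) or the human serum array of H (0.90, adjusted p = 0.095). Of 13 measured genes of that list 7, Elane, Mpo, Prtn3, Ctsg, Cxcr2, Stfa3 and Chil1, stayed below the median of all values on all 6 arrays, and S100a9 differed by 0.52 (adjusted p = 0.52). Il7r, on the list for T and NK cells, differed by 0.30 ± 0.08 (adjusted p = 0.039) and lost its call without 5 arrays (0.24 to 0.34, adjusted p = 0.055 to 0.2), while 10 of the 13 measured genes of that list, Cd3e, Cd3d and Cd3g among them, were below the median on all 6 arrays. What share such cells have in these differences was not tested.

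The serum difference without LPS was measured in the same fit on the 6 control arrays, which share no array with the comparison above but come from the same experiments. There 619 genes (5.25%) were called, 302 (2.56%) higher and 317 (2.69%) lower in mouse serum. Of the genes higher in mouse serum with LPS, 54 were higher without it as well, 35.5% of the first list and 17.9% of the second, and 55 were lower in both, 42.3% and 17.4%. Across all genes the differences without and with LPS correlated at r = 0.285 (Spearman 0.269), over genes that are not independent. Opposite calls were made for 6 genes: Ch25h and Pdxk (0.27 with LPS and -0.36 without) were higher in mouse serum with LPS and lower without (for Ch25h at background levels), and Hgf, Dnajb4 (-0.53 and 0.39), Tnfaip8 (-0.33 and 0.32) and Tmem140 (-0.24 and 0.20) the reverse. Of these, all but Ch25h and Hgf are named after their values were seen.

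The difference between the 2 contrasts was called in 74 genes (0.628%), 37 (0.314%) in each direction, and in 133 with the experiment as a block. It was called in 48 without the human serum LPS array of H and in 46 without the mouse serum control array of I. In several of its largest genes the sera differed without LPS and were not called with it. Ccl3, a chemokine, was at 7.48 without LPS in mouse serum and 9.52 in human serum, and at 13.37 and 13.65 with LPS (difference between the contrasts 1.77 ± 0.26, adjusted p = 0.00077). The Ccl3 levels with LPS lay near the top of the arrays' range, close to those of Cxcl10 above, where a difference may not be fully measurable. Mmp13, a collagenase, was at 9.46 and 11.10 without LPS and at 12.81 and 12.94 with it (1.51 ± 0.17, adjusted p = 2.9e-05). Spsb1, an adaptor that marks Nos2 for degradation, was at 9.21 and 7.2 without LPS and at 11.47 and 11.51 with it (-2.06 ± 0.39, adjusted p = 0.011). Hdac9, a histone deacetylase, was at 5.75 and 7.53 without and at 8.07 and 7.98 with LPS (1.87 ± 0.25, adjusted p = 0.00023). With LPS the serum difference had a 95% confidence interval of -0.66 to 0.10 in Ccl3, -0.38 to 0.12 in Mmp13, -0.62 to 0.53 in Spsb1 and -0.28 to 0.45 in Hdac9.

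**Figure D4:**
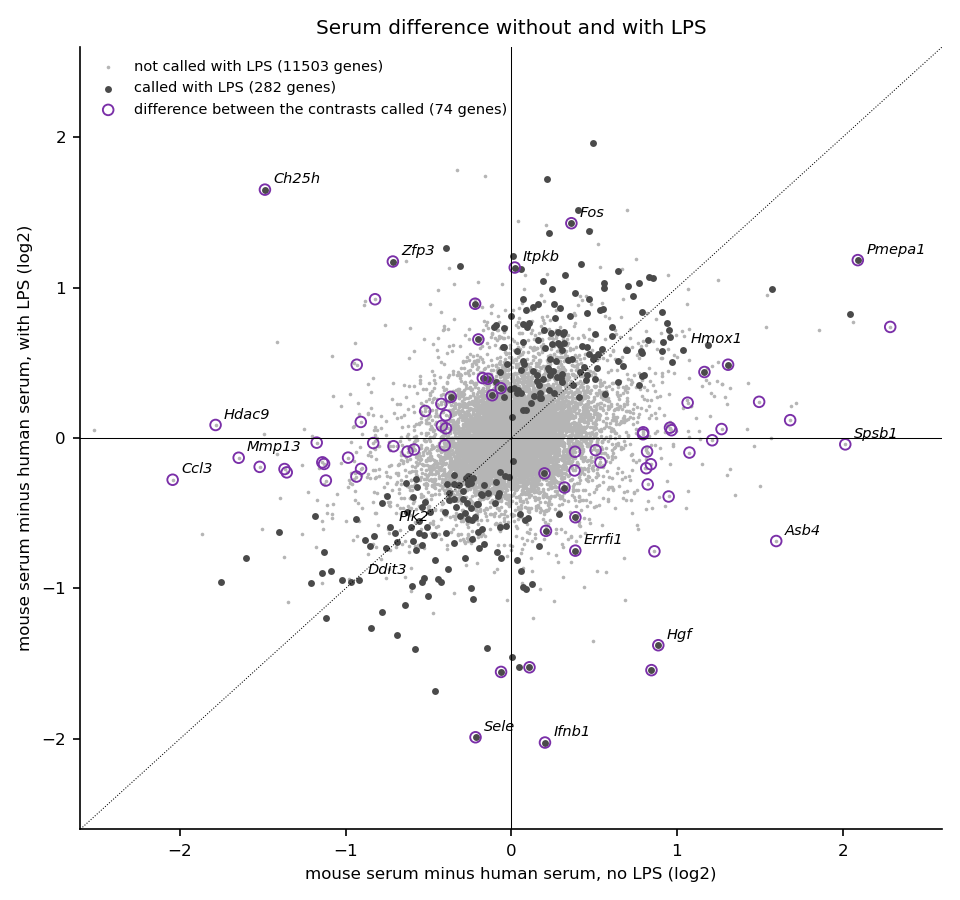
Mouse serum minus human serum without LPS (x axis, log2) against the same with LPS (y axis, log2) for 11785 genes; dark points are the 282 called with LPS, rings the 74 whose difference between the contrasts was called, and the dotted line marks equal differences. Ifnb1, Sele and Itpkb lie near 0 on the x axis, Ccl3, Hdac9, Mmp13 and Spsb1 near 0 on the y axis, Ch25h and Hgf in opposite corners, and Ddit3 and Plk2 near the line.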

How the data were processed

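RNA of 24 mouse macrophage cultures was measured on Affymetrix arrays. The deposited values are log2 values per probe set; GCRMA and Partek stand in the submitters' processing notes, with no version given, and the log base was taken from the values. Of 45101 probe sets 34945 named 1 gene, 932 several, 9160 none and 64 were controls. A probe set was kept if 3 or more arrays exceeded 5.08, the median over every value, and each gene was read from its kept probe set with the highest mean. limma 3.58.1 (R 4.3.3) fitted 1 mean per group over 24 arrays, with trended, robust moderation, two-sided tests and Benjamini-Hochberg adjustment within each comparison at 0.05. The scripts were tested on simulated data. Arrays give no read depth, and their number limits the precision. Confidence intervals are 95% and cover 1 gene at a time.

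The experiment letters come from the labels. Deviations from group means correlated at 0.109, 0.0221 and 0.0426 between the mouse and human serum LPS arrays of G, H and I. Over all 84 pairs of same-lettered arrays the median correlation was 0.0616. The experiment as a block was an alternative fit. Members and gene lists were chosen with earlier results of these data known. Named genes were the 15 largest called differences each way, up to 6 called genes per list, up to 8 called differences between the contrasts each way, and a set of LPS and serum genes named whatever their values. Promoters came from RefSeq (GRCm38.p6), and 11 motifs were searched on both strands. Alternatives were other scalings, filters, probe set rules, arrays and moderation, the block, and leaving out each array or experiment.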

Additional observations from a re-analysis of the deposited data

Results flagged for a closer look

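The serum difference with LPS was set against that without LPS in 1 test, and 74 genes passed it. Among the named genes the difference of the differences (log2, mouse serum minus human serum with LPS, less the same without LPS) was positive in Ch25h (3.14), Zfp3 (1.89), Hdac9 (1.87), Ccl3 (1.77), Serpinb1a (1.74), Mmp13 (1.51), Iffo2 (1.42), Abtb2 (1.33), Itpkb (1.11), Fos (1.07), Ccnd1 (0.85) and Dusp1 (0.40). It was negative in Mettl27 (-2.39), Asb4 (-2.28), Hgf (-2.27), Ifnb1 (-2.23), Spsb1 (-2.06), Sele (-1.77), Il23a (-1.63), Chn2 (-1.62), Itgb8 (-1.49), Errfi1 (-1.14), Pmepa1 (-0.91), Gclc (-0.82) and Jag1 (-0.73). Of the genes for which each of the 12 arrays was left out in turn, Abtb2, Asb4, Ccl3, Ch25h, Hdac9, Hgf, Mmp13, Sele, Spsb1 and Zfp3 kept the call each time. Chn2 lost it without 9 of the 12 arrays, Iffo2 without 5, Ifnb1 without 4, Il23a and Mettl27 without 10 each and Serpinb1a without 11. Some of the 4 group means were below the filter of 5.08, so that sizes depend on background, in Ch25h, Ifnb1, Sele, Itgb8, Mettl27, Il23a and Asb4. The Ccl3 means with LPS lay near the top of the arrays' range, where a difference may not be fully measurable. Groups of 3 arrays were too small for a search for single outlying samples.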

How the results depend on the processing

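With the experiment as a block the difference between the contrasts was called in 133 genes (64 higher, 69 lower), and the serum difference with LPS in 390, among them all 282. The balance of 152 higher to 130 lower turned with the 6 arrays alone (90 higher, 110 lower), with the block added to them (168 called, 76 higher, 92 lower) and with the mean of each gene's probe sets (300 called, 136 higher, 164 lower). Plain moderation called 101 higher and 90 lower. Asking for at least 1 log2 unit left 42, 23 higher and 19 lower. Centring the arrays gave 125 higher and 126 lower. Leaving out arrays gave 30 to 189 called genes with LPS (17 to 100 higher, 13 to 89 lower), and 46 to 72 for the difference between the contrasts (22 to 37 higher, 21 to 40 lower). Among the called named genes, settings that kept all arrays moved 14 by over 1.5 times, each by the choice of probe sets, as given beside them. Nfe2l2 turned to -0.21 as the mean of its probe sets. Over the called named genes, 1272 of 1814 values kept direction and call, 541 kept direction and lost the call, and 1 turned. Low signal over background limits the 13 called genes whose lower mean was under the filter.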
